A study of Homo sapiens with 12 samples.

Results

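Chromosome 19 carries the largest collection of human ZNF genes, which encode zinc finger proteins of the C2H2 type. The genes described here are the protein-coding genes of GENCODE release 44 on chromosome 19 (genome build hg38) whose symbol is ZNF followed by a number and at most 1 letter. There were 246 such genes among 20033 protein-coding genes. They were compared with the 1230 other protein-coding genes of chromosome 19 and with the 262 ZNF genes on other chromosomes. The series holds 12 samples of Huh7, a human hepatocellular carcinoma line, and 2 of them were analysed here, CUT&Tag for HSF1 and CUT&Tag for H3K27ac in wild-type, untreated cells, with 1 library each. CUT&Tag uses an antibody to direct a transposase to a chromatin protein, so that nearby DNA is cut and tagged for sequencing. HSF1 is the heat shock transcription factor, and H3K27ac is an acetylation of histone H3 found at active promoters and enhancers. With 1 library per antibody and 1 cell line, no difference below has a replicate check, no test between samples was possible, and the intervals cover counting error only.

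Each finger of a C2H2 protein is a short loop held by a zinc ion and contacts a few bases of DNA, so a row of fingers can recognise a long sequence. Many ZNF proteins also carry a KRAB domain, which recruits the co-repressor TRIM28 and, through it, the histone methyltransferase SETDB1 and HP1 proteins, and many of these KRAB zinc finger proteins silence transposable elements. The genes arose by repeated tandem duplication and stand in clusters, so neighbouring members are often close relatives. All 246 members had at least 1 C2H2 finger in the longest protein rebuilt from the annotation and the genome, with a median of 12 fingers and a range of 1, in ZNF428, to 36. A KRAB-like stretch was found in 210 of them and a SCAN-like stretch, a domain through which zinc finger proteins pair, in 3.

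A member was called bound when the summit of an HSF1 peak lay within 1 kb of any of its annotated transcript starts. An HSF1 peak was listed at 80 of the 246 members, or 32.5% (95% Wilson interval 27% to 38.6%), beside 25.4% of all protein-coding genes. Before these values are described, 2 sets of start sequences are shown. The first set comes from the cluster between ZNF101 and ZNF254, where the starts of 25 of 37 members carried a pair of CCAAT boxes with the same spacing. CCAAT is the core of the sequence read by the factor NF-Y. The sequences below are from hg38, read 5′ to 3′ along the gene, lie upstream of the annotated start and have both CCAAT boxes in capitals. The spacing was noticed after the values had been seen. The 5 bound members with the highest fold enrichment whose pair lies wholly upstream and off any exon were as follows.

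ZNF93, chr19:19900842-19900912, plus strand: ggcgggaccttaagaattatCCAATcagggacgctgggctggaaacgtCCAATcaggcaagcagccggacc
ZNF714, chr19:21082096-21082158, plus strand: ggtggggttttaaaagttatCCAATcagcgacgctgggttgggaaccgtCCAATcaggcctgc
ZNF253, chr19:19865758-19865831, plus strand: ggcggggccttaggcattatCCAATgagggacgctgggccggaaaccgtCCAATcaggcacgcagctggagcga
ZNF724, chr19:23250422-23250495, minus strand: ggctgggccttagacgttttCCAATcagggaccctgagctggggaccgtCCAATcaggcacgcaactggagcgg
ZNF430, chr19:21020551-21020624, plus strand: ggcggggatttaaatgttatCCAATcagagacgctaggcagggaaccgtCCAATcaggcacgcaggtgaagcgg

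The 4 unbound members of this cluster that come first along the chromosome and carry such a pair are shown for comparison.

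ZNF682, chr19:20039533-20039606, minus strand: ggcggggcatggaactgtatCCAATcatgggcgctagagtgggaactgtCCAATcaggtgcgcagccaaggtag
ZNF90, chr19:20077898-20077971, plus strand: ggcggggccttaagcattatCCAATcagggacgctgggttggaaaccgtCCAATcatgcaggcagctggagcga
ZNF486, chr19:20167108-20167181, plus strand: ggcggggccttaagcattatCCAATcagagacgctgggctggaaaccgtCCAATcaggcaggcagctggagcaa
ZNF626, chr19:20661604-20661677, minus strand: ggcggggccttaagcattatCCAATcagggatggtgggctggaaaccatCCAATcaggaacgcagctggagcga

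The first base of the second box stood 28 or 29 bp after the first base of the first box in each of these 9 sequences, 28 bp in ZNF93 and 29 bp in the others. Both boxes read in the direction of the gene. The second set gives the 120 bases upstream of the transcript start nearest the summit for the 8 members with the highest fold enrichment that had no such pair, leaving out ZNF565, whose stretch overlaps an exon. Capitals mark, on either strand, the CCAAT box, the GC box GGGCGG that SP1 reads, and the core CCGGAA of sites that ETS factors read.

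ZNF444, chr19:56140831-56140950, plus strand: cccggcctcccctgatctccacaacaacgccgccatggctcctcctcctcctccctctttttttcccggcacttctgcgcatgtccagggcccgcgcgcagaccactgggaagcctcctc
ZNF574, chr19:42076046-42076165, plus strand: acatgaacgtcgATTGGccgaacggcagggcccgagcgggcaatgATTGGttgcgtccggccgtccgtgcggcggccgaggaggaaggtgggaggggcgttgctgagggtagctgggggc
ZNF146, chr19:36214482-36214601, plus strand: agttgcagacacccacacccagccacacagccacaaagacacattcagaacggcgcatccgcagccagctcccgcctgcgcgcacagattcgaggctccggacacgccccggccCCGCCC
ZNF44, chr19:12294884-12295003, minus strand: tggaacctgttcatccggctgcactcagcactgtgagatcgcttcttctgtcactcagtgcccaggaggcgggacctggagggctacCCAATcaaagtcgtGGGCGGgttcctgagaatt
ZNF627, chr19:11597342-11597461, plus strand: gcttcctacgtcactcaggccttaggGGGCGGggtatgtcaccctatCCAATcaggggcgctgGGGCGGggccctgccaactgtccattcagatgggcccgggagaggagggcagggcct
ZNF543, chr19:57320352-57320471, plus strand: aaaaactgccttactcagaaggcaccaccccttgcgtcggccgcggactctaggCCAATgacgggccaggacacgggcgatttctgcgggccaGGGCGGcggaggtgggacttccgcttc
ZNF875, chr19:37317767-37317886, plus strand: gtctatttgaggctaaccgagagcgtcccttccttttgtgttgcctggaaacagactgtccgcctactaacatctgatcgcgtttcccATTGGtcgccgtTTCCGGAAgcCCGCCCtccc
ZNF787, chr19:56121296-56121415, minus strand: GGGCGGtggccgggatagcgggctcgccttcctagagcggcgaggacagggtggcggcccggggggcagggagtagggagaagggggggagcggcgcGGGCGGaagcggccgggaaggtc

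ZNF574 held 2 CCAAT boxes on the opposite strand in this stretch, ZNF44, ZNF627 and ZNF543 held 1 CCAAT and 1 or more GC boxes, and ZNF444 held none of the 3 letter strings. A match is a description of letters and not a site.

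After filtering, 2712212 of 3604911 HSF1 tags (75.2%) and 896393 of 15737890 H3K27ac tags (5.70%) were left. The HSF1 list had 7147 peaks on chromosomes 1 to 22, X and Y and the H3K27ac list had 1299. Chromosome 19 held 426 HSF1 peaks, or 7.27 per Mb, and 41 H3K27ac peaks. The pileup counts the extended tags that cover a summit. The fold enrichment divides the pileup by the local background after adding 1 to each, and both values are as the authors deposited them.

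The share of bound members stood above that of the other chromosome 19 genes and beside that of the ZNF genes elsewhere. Of the other chromosome 19 genes, 331 of 1230 were bound, or 26.9% (24.5% to 29.5%). Of the ZNF genes on other chromosomes, 84 of 262 were bound, or 32.1% (26.7% to 37.9%). The members thus exceeded the other chromosome 19 genes by 5.61 percentage points (Newcombe interval -0.494 to 12.2) and the ZNF genes elsewhere by 0.459 points (-7.62 to 8.57), and both intervals include 0. When only peaks with a -log10 q-value of at least 5 were kept, 24.0% of members were bound and the difference from the other chromosome 19 genes was 0.0813 points, and with peaks of pileup 10 or more it was -1.63 points. It was 8.46 points when each peak went to the gene with the nearest start only and 10.9 points when genes with another coding start within 1 kb were left out. The plot of shares by group shows both marks.

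**Figure D1:**
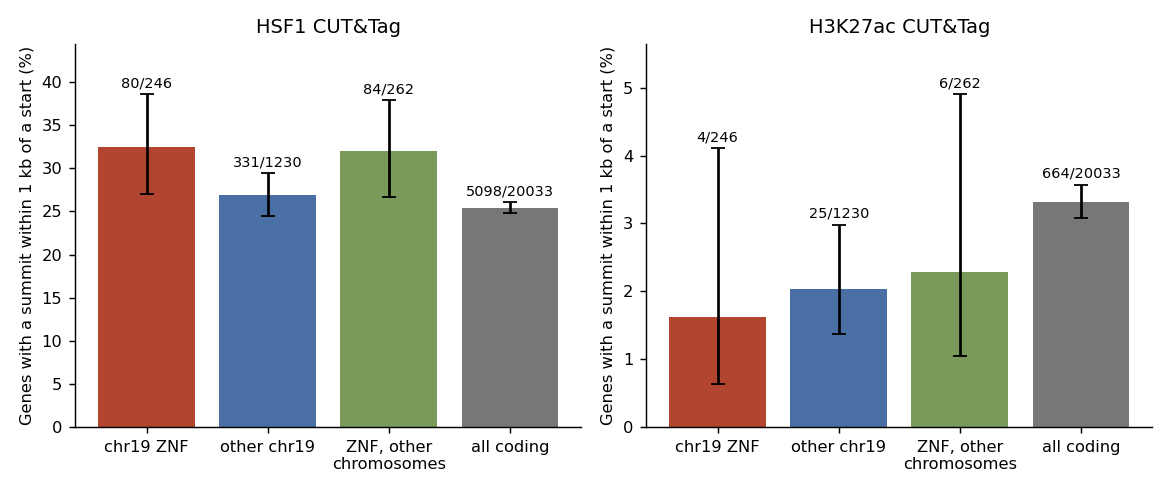
Share of genes, in percent, with an HSF1 (left) or H3K27ac (right) CUT&Tag peak summit within 1 kb of an annotated transcript start, with 95% Wilson intervals and counts. For HSF1 the interval of the 246 chromosome 19 ZNF genes overlaps those of the other chromosome 19 genes and of the ZNF genes elsewhere, and for H3K27ac the interval of the members, 0.634% to 4.11%, includes the share of all coding genes.

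Base composition differed between the groups, and in both comparison groups the share bound was highest at genes with 9 or more annotated starts. The median GC content within 250 bp of the outermost start was 59.6% in members, 63.1% in the other chromosome 19 genes and 62.5% in the ZNF genes elsewhere. Weighted to the members' GC content in bins of 5 points, the other chromosome 19 genes were bound in 25.5% and the ZNF genes elsewhere in 34.0%. Between 50% and 60% GC, 36 of 117 members were bound (30.8%, 23.1% to 39.6%), against 67 of 317 other chromosome 19 genes (21.1%, 17.0% to 26.0%). Between 60% and 70% GC the shares were 36.4% and 31.6%. The ZNF genes elsewhere were bound in 33.8% (24 of 71, 23.9% to 45.4%) between 50% and 60% GC. Between 60% and 70% GC they were bound in 37.9%, so both of their shares lay slightly above those of the members. Members with 1 to 2 annotated starts were bound in 28.9% (11 of 38) and members with 9 or more in 30% (12 of 40). The other chromosome 19 genes went from 11.6% with 1 to 2 starts to 41.5% with 9 or more, and the ZNF genes elsewhere from 21.8% to 46.6%. With 3 to 5 and 6 to 8 starts the shares were 33.7% and 34.3% in members. They were 22.0% and 32.5% in the other chromosome 19 genes, and 32.3% and 26.4% in the ZNF genes elsewhere, with no steady rise in the last group. Whether the change with the number of starts differs between the groups was not tested.

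Peaks at bound members were lower in pileup than those at the other chromosome 19 genes. The 80 bound members had pileups of 5 to 36 with a median of 12 and quartiles of 9 and 14.3, the other chromosome 19 genes had a median of 18, with quartiles of 13 and 25, and the ZNF genes elsewhere had a median of 12, with quartiles of 9 and 15. The fold enrichment of the members had a median of 7.10, quartiles of 5.83 and 8.09 and a range of 4.29 to 11.1, beside medians of 7.81 and 7.23. The median local background was 0.71 tags at the members, 1.46 at the other chromosome 19 genes and 0.80 at the ZNF genes elsewhere. In both pileup and fold enrichment, the quartile ranges of all groups overlapped, as the plot of levels by group shows. Of the 80 bound members, 24 had a pileup under 10 and 9 had 20 or more. The median peak length was 332 bp at members, 441 bp at the other chromosome 19 genes and 355 bp at the ZNF genes elsewhere.

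**Figure D2:**
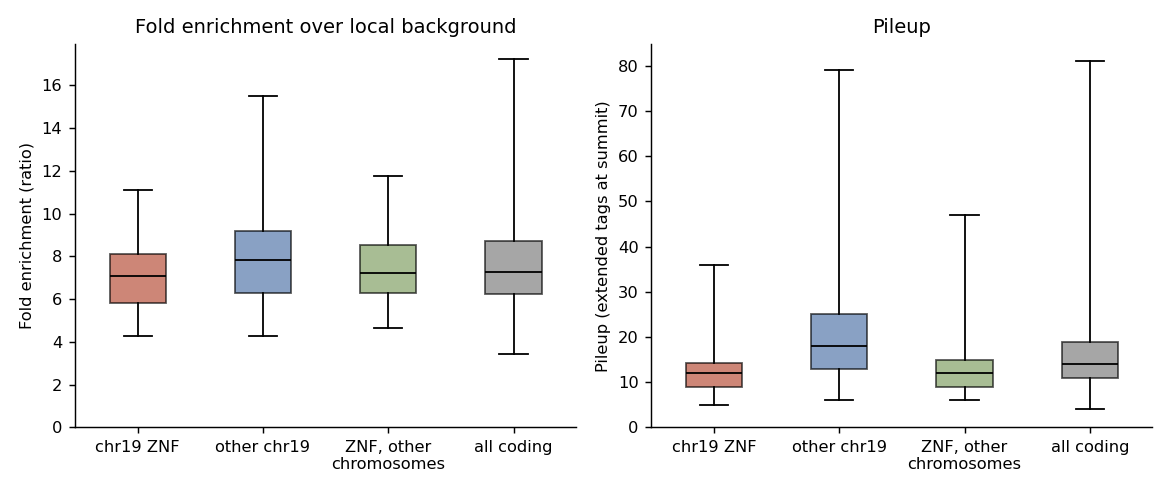
Fold enrichment (left, ratio) and pileup (right, extended tags at the summit) of the best HSF1 peak of each bound gene, with boxes from the lower to the upper quartile, a line at the median and whiskers to the lowest and highest value. The median pileup is 12 at the 80 chromosome 19 ZNF genes and 18 at the 331 other chromosome 19 genes, while the boxes for fold enrichment lie at similar heights.

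HSF1 summits lay closer to an annotated start at ZNF genes than at the other genes of the chromosome. The median distance from summit to nearest start was 72 bp at members, 165 bp at the other chromosome 19 genes and 76 bp at the ZNF genes elsewhere. The summit lay within 200 bp of a start at 67 of 80 bound members (83.8%), at 60.1% of bound other chromosome 19 genes and at 81.0% of bound ZNF genes elsewhere. It lay within 50 bp at 32 members. Upstream summits were found at 52 of the 80 members (65.0%), beside 78.5% and 70.2% in the comparison groups. Over all bound protein-coding genes the median distance was 94 bp, with 74.5% of summits within 200 bp and 74.8% upstream. The member just inside the 1 kb limit was ZNF575, whose summit lay 538 bp from a start, and the member just outside it was ZNF587B, at 4753 bp, so no member lay near the limit. For the 166 unbound members the nearest summit was a median of 72743 bp away, and 6 of them had one within 10 kb. Of the 80 bound members, 69 were bound at their outermost start and 11 only at another start.

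Peaks inside the members were rare. Away from every start of the gene itself, 5 of 246 members held a summit in the gene body (2.03%), or 0.638 summits per Mb of gene length. The other chromosome 19 genes held 2.70 per Mb, the ZNF genes elsewhere 0.729 and all remaining genes 0.913. Some of these summits lay within 1 kb of a start of another coding gene. Without them the members held 0.383 per Mb (3 of the 5 summits), the other chromosome 19 genes 1.47 (43 of 79), the ZNF genes elsewhere 0.656 and the remaining genes 0.747. This measure was added after the values had been seen.

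The 15 members with the highest fold enrichment came from clusters and from single genes, and they included proteins with and without KRAB. ZNF93, a KRAB protein known to repress LINE-1 elements, had the highest fold enrichment, 11.1, with a pileup of 23 and the summit 18 bp upstream of its start. ZNF444, a protein with a SCAN domain, had a pileup of 30 and a fold enrichment of 10.6. ZNF574 had 10.6 and a pileup of 21, with the summit 154 bp upstream of a start.

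ZNF146, which is made almost wholly of fingers, and ZNF565, a KRAB-type member, start head to head and shared a single HSF1 peak of pileup 22 and fold enrichment 10.0. Its summit lay 82 bp downstream of a ZNF146 start and 19 bp upstream of a ZNF565 start. ZNF44 (fold enrichment 9.66, pileup 16) and ZNF627 (9.49, 14) followed, both in the cluster that ends with ZNF490. Their summits lay 16 bp and 85 bp upstream of a start.

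ZNF254 had a fold enrichment of 9.29 with a pileup of 20, ZNF543 had 9.21 with 13, and ZNF875 had 9.15 with 12. ZNF787 had the highest pileup of all members, 36, over the highest local background, 3.06, and so a fold enrichment of 9.11. ZNF875 reached nearly the same fold enrichment from a pileup of 12, over a local background of 0.42. ZNF714 had a fold enrichment of 9.02 with a pileup of 23, ZNF253 had 8.86 with 13, ZNF527 had 8.78 with 12 and ZNF724 had 8.74 with 17.

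At the lower end, ZNF383 and ZNF585B shared 1 peak of pileup 5 and fold enrichment 4.29, and its -log10 p-value of 5.39 was close to the caller's limit of 5. In all, 42 bound members had a fold enrichment of at least 7 and 12 of at least 9.

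**Figure D3:**
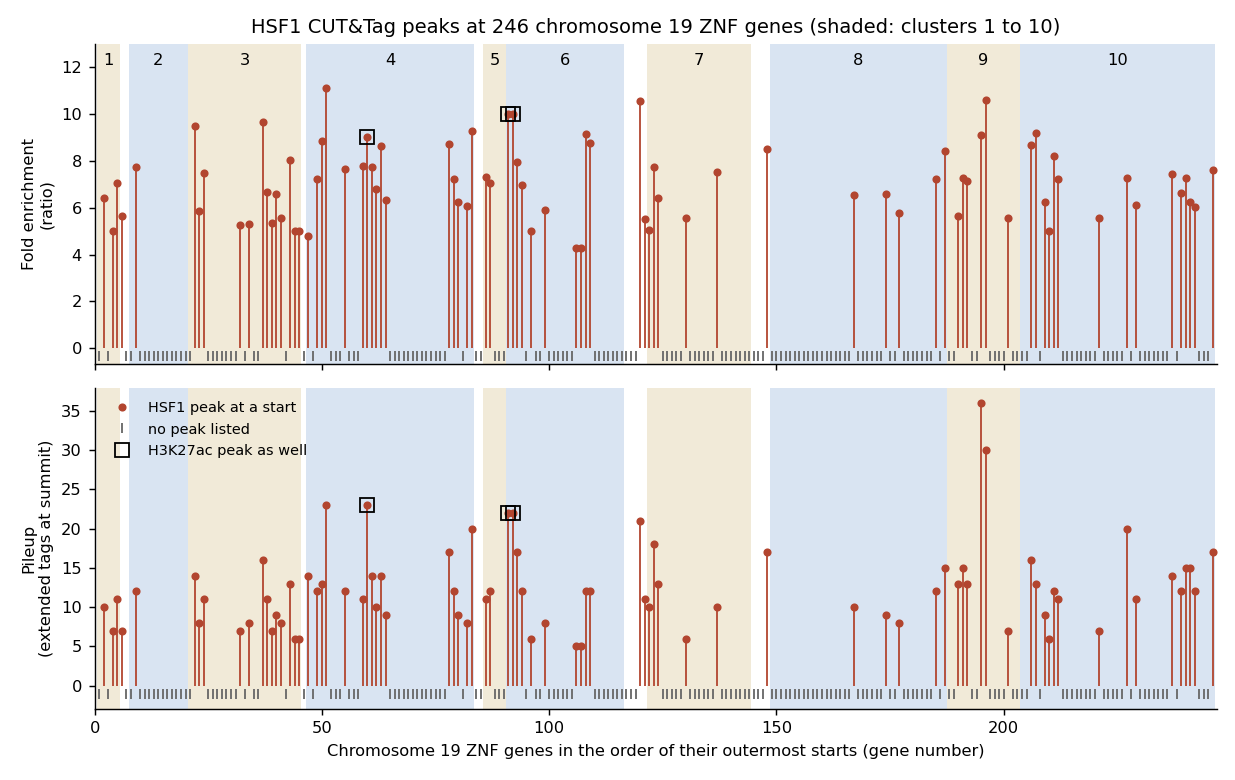
Fold enrichment (top, ratio) and pileup (bottom, extended tags at the summit) of the HSF1 peak at each of the 246 chromosome 19 ZNF genes, in the order of their outermost starts; ticks below 0 mark members with no peak and shading marks clusters 1 to 10. Bound members stand throughout the chromosome with empty stretches in between, the longest of 18 members in cluster 8, and squares mark the 3 bound members that also have an H3K27ac peak.

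Members whose outermost starts lay at most 500 kb from the next were joined, which gave 10 clusters of at least 5 members. They held 232 members, of which 76 (32.8%) were bound, and 4 of the 14 members outside them were bound: ZNF557, ZNF574, ZNF526 and ZNF473. ZNF473 encodes a protein of histone mRNA processing and had a fold enrichment of 8.49. The share bound ran from 7.69% in cluster 2 to 60% in cluster 1, a range of 52.3 points, over clusters of 5 to 43 members. The clusters are described in the order of the chromosome.

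Cluster 1, from ZNF554 to ZNF77 (chr19:2819868-2944971), had 3 of 5 members bound: ZNF555 (fold enrichment 6.40), ZNF57 (5.00) and ZNF77 (7.06). Cluster 2, from ZNF414 to ZNF846 (chr19:8514167-9793180), had 1 of 13 bound, or 7.69% (1.37% to 33.3%). This was ZNF558, whose summit with a pileup of 12 lay 448 bp upstream of its nearest start and also within 1 kb of a start of MBD3L1. An unbound run of 12 members reached from ZNF317 in this cluster to ZNF653 at the head of the next.

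Cluster 3, from ZNF653 to ZNF490 (chr19:11505839-12640098), had 13 of 25 members bound, or 52.0% (33.5% to 70%). This is a high share made largely of low peaks. Pileups ran from 6 to 16, 8 of the 13 lay under 10, and the median fold enrichment was 5.84, the lowest of the 10 clusters. ZNF44, ZNF563, ZNF442, ZNF799 and ZNF443 formed a bound run of 5 neighbours, with pileups of 16, 11, 7, 9 and 8 in that order. ZNF564 stood above most of its neighbours with a fold enrichment of 8.05, and ZNF441 with 7.50. Among the 13 other coding genes in the span, 4 were bound (30.8%, 12.7% to 57.6%).

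Cluster 4, from ZNF101 to ZNF254 (chr19:19668796-24033405), had 16 of 37 members bound, or 43.2% (28.7% to 59.1%), with a median fold enrichment of 7.69. Bound members came in runs. ZNF506 (fold enrichment 7.22), ZNF253 (8.86) and ZNF93 (11.1) stood side by side. The longest bound run of the chromosome was here as well, 6 members with fold enrichments of 7.79 in ZNF430, 9.02 in ZNF714, 7.73 in ZNF431, 6.79 in ZNF708, 8.62 in ZNF738 and 6.33 in ZNF493.

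The next 13 members of cluster 4, from ZNF429 to ZNF730, had no listed peak, and the nearest summit to any of them was 27567 bp away. Bound members then returned with ZNF724 (8.74), ZNF91 (7.22), a KRAB protein that represses SVA elements, and ZNF675 (6.25), a regulator of TRAF6 signalling. ZNF726 (6.08) and ZNF254 (9.29) closed the cluster. Median GC content was 56.6% at the 16 bound and 57.5% at the 21 unbound members of the cluster. A 50-base word found elsewhere in the genome was present at the start of 7 of the bound and 7 of the unbound members. Such words made up at most 4.87% of a start among the bound and 32.7% among the unbound members.

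Cluster 5, from ZNF302 to ZNF792 (chr19:34677639-34964229), had 2 of 5 bound, ZNF302 (7.32) and ZNF181 (7.07). Cluster 6, from ZNF146 to ZNF573 (chr19:36214602-37817300), had 10 of 26 bound (38.5%, 22.4% to 57.5%), with fold enrichments from 4.29 to 10.0. It held 14 of the 31 members that start head to head with another coding gene. ZNF146, ZNF565, ZNF566 (7.96) and ZNF260 (6.99) formed 1 bound run and ZNF383, ZNF585B, ZNF875 and ZNF527 another.

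Cluster 7, from ZNF575 to ZNF180 (chr19:43525497-44500524), had 5 of 23 bound (21.7%, 9.66% to 41.9%). ZNF575 (5.05), ZNF576 (7.72) and ZNF428 (6.42), none of which had a KRAB-like stretch, opened it. ZNF230 (5.56) and ZNF226 (7.53) were the only bound members among the rest. Cluster 8, from ZNF175 to ZNF331 (chr19:51571283-53519527), was the largest cluster but 1 and had 5 of 39 bound, or 12.8% (5.60% to 26.7%). That interval lies below the share over all members, 32.5%. Its first 18 members, from ZNF175 to ZNF578, formed the longest unbound run.

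The bound members of cluster 8 were ZNF808 (6.55), ZNF320 (6.58), ZNF160 (5.77), ZNF761 (7.22) and ZNF331 (8.42), the last an imprinted gene. Of the 15 other coding genes in the span of cluster 8, 1 was bound, or 6.67% (1.19% to 29.8%). In cluster 2 it was 2 of 15 (13.3%, 3.74% to 37.9%). The other genes did not stand near the members in every cluster. In cluster 9, 3 of 23 other genes were bound (4.54% to 32.1%), beside 37.5% of members (18.5% to 61.4%). In cluster 7 it was 4 of 14, beside 5 of 23 members. Counts of bound other genes were 0 of 3 in cluster 4, 2 of 6 in cluster 6 and 6 of 22 in cluster 10. Clusters 1 and 5 held no other coding gene in their spans.

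Cluster 9, from ZNF628 to ZNF835 (chr19:55476617-56671783), had 6 of 16 bound (37.5%, 18.5% to 61.4%) and the highest pileups. Its bound members were ZNF524 (pileup 13), ZNF865 (15), ZNF784 (13), ZNF787 (36), ZNF444 (30) and ZNF470 (7). Only 6 of the 16 members of cluster 9 had a KRAB-like stretch.

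Cluster 10, from ZNF264 to ZNF446 (chr19:57191500-58474017), had 15 of 43 bound (34.9%, 22.4% to 49.8%), with fold enrichments from 5.00 in ZNF548 to 9.21 in ZNF543. ZNF547 (6.25), ZNF548 (5.00), ZNF17 (8.23) and ZNF749 (7.23) formed 1 bound run and ZNF8 (6.63), ZNF497 (7.27), ZNF837 (6.25) and ZNF584 (6.02) another. ZNF547 was the only member with more than 1 peak. ZNF274, a KRAB protein that binds the finger-coding ends of other ZNF genes and recruits SETDB1 there, had a fold enrichment of 7.43 with its summit 5 bp from the start.

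**Figure D4:**
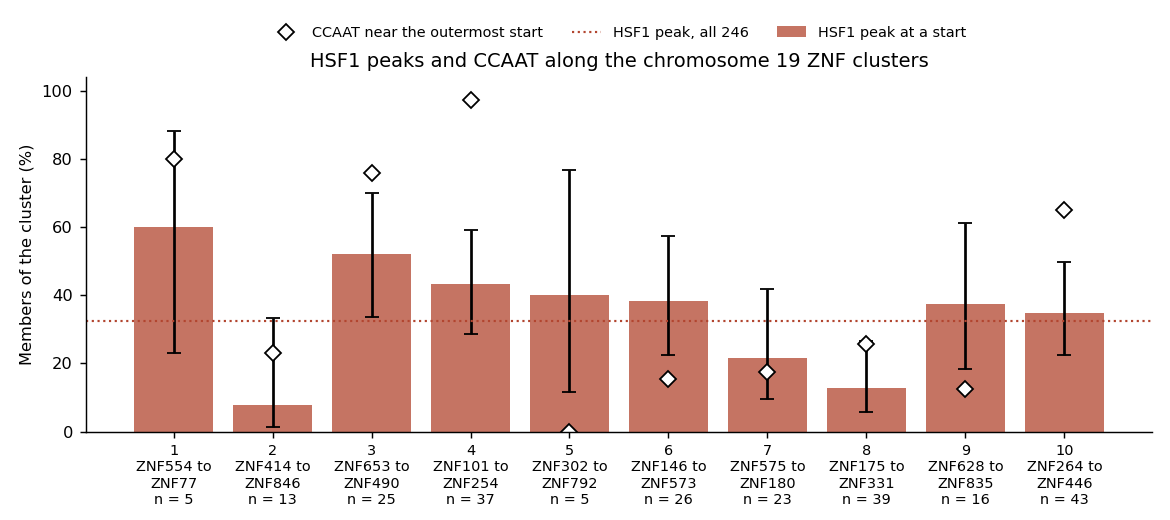
Share of members with an HSF1 peak (bars, percent, with 95% Wilson intervals) and with a CCAAT near the outermost start (diamonds, percent) in the 10 clusters, in the order of the chromosome, with a dotted line at the 32.5% of all 246 members. Clusters 2 and 8 have the lowest bars, and the diamond of cluster 4, 97.3%, stands far above its bar of 43.2%.

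CCAAT, on either strand between 150 bp upstream and 50 bp downstream of the outermost start, was more frequent at members than in the comparison groups. It was found at 115 of 246 members (46.7%), at 30.2% of the other chromosome 19 genes, at 34.0% of the ZNF genes elsewhere and at 28.4% of all protein-coding genes. The boxes lay mostly upstream, 158 of 175, with a median first base 55 bp upstream of the start, and 146 of the 175 read in the direction of the gene.

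Bound members held CCAAT more often than unbound members by this measure, but the size of the difference depended on how it was read. CCAAT was found at 44 of 80 bound members (55.0%, 44.1% to 65.4%) and at 71 of 166 unbound members (42.8%, 35.5% to 50.4%), a difference of 12.2 points (Newcombe interval -1.05 to 24.9). A longer form of the motif, with fixed classes of flanking bases, was found at 8.75% of bound and 13.3% of unbound members, the opposite direction. At the other chromosome 19 genes the longer form was found at 21.5% of bound and 9.01% of unbound genes. With the same 150 bp to 50 bp window, CCAAT was found at 42.9% of bound and 25.5% of unbound other chromosome 19 genes.

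CCAAT varied far more between clusters than between bound and unbound members. It was found at 36 of 37 members in cluster 4, at 19 of 25 in cluster 3 and at 28 of 43 in cluster 10, but at 4 of 26 in cluster 6 and at 0 of 5 in cluster 5. Within the 9 clusters that held members of both kinds, the share bound with CCAAT minus that without was above 0 in 5 clusters and below 0 in 4. In clusters 1 and 4, both among the 5, only 1 member lacked CCAAT. Weighted by the numbers of members of both kinds in each of the 9 clusters, the difference in share bound was -0.834 points. This within-cluster comparison was added after the values had been seen.

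Around the peaks themselves, CCAAT lay within 100 bp of the summit at 42 of 78 distinct peaks (53.8%, 42.9% to 64.5%). Windows of the same width 5 kb to either side held it in 25.6%. The longer form was found at 7.69% of the member peaks and 2.56% of these windows. For CCAAT itself, the shares at the peaks and windows of the other chromosome 19 genes were 47.3% and 18.4%. At those of the ZNF genes elsewhere they were 41.3% and 23.8%. For the longer form they were 26.7% and 1.26% at the other chromosome 19 genes, and 11.25% and 0.625% at the ZNF genes elsewhere. Of the best peaks of bound members, 49 of 77 had a CCAAT within 200 bp (63.6%), at a median distance of 34 bp. The shares were 60.2% at the other chromosome 19 genes and 57.0% at the ZNF genes elsewhere, with medians of 36 bp and 45 bp. These medians cover only peaks with a CCAAT within 200 bp.

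All 25 members that carried the paired boxes shown above stood in cluster 4. Of these 25, 13 were bound (52.0%, 33.5% to 70%), and of the other 12 members of cluster 4, 3 were bound (25%, 8.89% to 53.2%), with overlapping intervals. The bound run from ZNF430 to ZNF493 had the pair in 5 of 6 members and the unbound run from ZNF429 to ZNF730 in 6 of 13, so the pair was present in both. In ZNF430 the summit fell on the first base of the second box, 34 bp upstream of the start. In ZNF93 it lay 18 bp upstream with the second box beginning 23 bp upstream, and in ZNF714 it lay 32 bp downstream of the outermost start. For the remaining bound members with the pair it lay 41 bp upstream in ZNF253, 32 bp upstream in ZNF493 and at the outermost start in ZNF724. It lay downstream of that start by 5 bp in ZNF726, 41 bp in ZNF254 and 64 bp in ZNF675. The downstream distance was 116 bp in ZNF737, 151 bp in ZNF431, 198 bp in ZNF738 and 275 bp in ZNF506.

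In the wider counts that follow, a pair with both boxes reading against the gene was counted as well. Outside chromosome 19 the pair was found at 15 ZNF genes, 8 of them on chromosome 7 and 3 on chromosome 4, and 7 of the 15 were bound. Over all protein-coding genes 86 (0.429%) carried the pair, of which 44 were bound (51.2%, 40.8% to 61.4%), against 25.3% of genes without it. Of the 86, 43 were neither on chromosome 19 nor ZNF genes, and 23 of these 43 were bound. The genes with the pair are in part copies of each other and are not independent. They include the 25 members, 13 of them bound, in which the spacing was noticed after the values had been seen. The genes without the pair include those with no CCAAT at all. Whether the spacing matters beyond the presence of CCAAT was not tested.

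The promoters of cluster 4 were also the most alike. RefSeq promoters (GRCh38.p14, 250 bases before to 50 after the start) were matched by symbol for 216 members. Each was shifted along every other without gaps and its best match was kept, so unrelated promoters get a value as well. The identity to this best match had a median of 41.9% and a lowest value of 35.3% over all 216. In cluster 4 the median was 74.3%, and 17 of 29 reached 70% or more. The best match lay in the same cluster for 140 of the 216. An inserted or lost base between related promoters lowers the value. There were 18 pairs of best matches with at least 70% identity. Both members were bound in 7 pairs, 1 of them in 4 and neither in 7. This measure was chosen after the values had been seen, and how reads from near-identical starts were placed is not given in the sources used here. At none of the 246 members were over 50% of the 50-base words around the start found elsewhere in the genome.

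Other letter strings were searched on both strands of the same 300-base promoters, 15330 of which were matched over all coding genes. The ETS core CCGGAA was frequent in the members, 56.0% of whose promoters held it (49.4% to 62.5%), beside 23.1% of all promoters, 22.0% of those of the other chromosome 19 genes and 45.1% of those of the ZNF genes elsewhere. It was found at 52.1% of bound and 58.0% of unbound members. By cluster it was found at 79.3% of promoters in cluster 4, 77.5% in cluster 10, 75% in cluster 5, where 4 promoters were matched, and 71.9% in cluster 8, which had few bound members. The other 6 clusters lay between 20% and 50%.

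In these promoters CCAAT was found at 53.7% of members and 36.6% of all coding genes, with 64.4% of bound and 48.3% of unbound members. The GC box GGGCGG was found at 67.6% of members and at 59.2% of all, with 66.6% of the other chromosome 19 genes and 59.6% of the ZNF genes elsewhere. The heat shock element, the inverted GAA repeat read by HSF1, was searched by name with 3 units and 1 mismatch allowed in its 9 fixed bases. It was found at 7.41% of members (4.61% to 11.7%) and 4.89% of all promoters, at 6.85% of bound and at 7.69% of unbound members. The shares were 3.36% at the other chromosome 19 genes (2.39% to 4.71%) and 2.35% at the ZNF genes elsewhere (1.01% to 5.38%).

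The E-box CACGTG, read by MYC and related factors, was less frequent at members, 4.17% (2.21% to 7.73%) beside 8.89% of all promoters. The other chromosome 19 genes had it at 8.83% and the ZNF genes elsewhere at 6.10% (3.60% to 10.2%). TGACGTCA, read by CREB and ATF factors, was found at 3.24% of members and 2.64% of all, GCGCATGCG, read by NRF1, at 2.78% and 2.73%, AAGATGGCG, read by YY1, at 3.70% and 2.80%, and TCTCGCGAG at 0.926% and 1.08%. No match says only that these letters are not in this window.

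Members that start within 1 kb of another coding gene on the opposite strand were bound more often when a peak could count for both genes. Of the 31 head-to-head members 17 were bound (54.8%, 37.8% to 70.8%), and of the other 215 members 63 were bound (29.3%, 23.6% to 35.7%), with intervals that do not overlap. The gap rests largely on peaks near starts of both genes of a pair. Of the 17, 13 shared their peak with the partner, ZNF627, ZNF574, ZNF529 and ZNF587 did not, and 3 peaks were each counted for a pair of members. With each peak given only to the gene with the nearest start, a comparison added after the values had been seen, 10 of the 31 were bound (32.3%, 18.6% to 49.9%) and 62 of the other 215 (28.8%, 23.2% to 35.2%), and the intervals overlap. In that count 29.3% of all members were bound. With every peak near a start counted, the same order was seen at the other chromosome 19 genes, with 51.8% and 20.3%, and at the ZNF genes elsewhere, with 55.8% and 27.4%. Head-to-head starts made up 12.6% of members and 20.9% of the other chromosome 19 genes. Among members with neither a head-to-head partner nor a CCAAT, 22 of 107 were bound (20.6%, 14.0% to 29.2%).

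In 10 head-to-head pairs both genes shared the same peak. The strongest was that of ZNF146 and ZNF565. ZNF473 and VRK3, a kinase gene, shared a summit of pileup 17 and fold enrichment 8.49, ZNF558 and MBD3L1 a summit of 12 and 7.74, and ZNF576 and IRGQ a summit of 18 and 7.72. ZNF302 shared a peak with SCGB2B2 (7.32), ZNF524 with FIZ1 (5.65), ZNF557 with MBD3L3 (5.63), ZNF526 with DEDD2 (5.50), ZNF791 with ZNF490 (5.00) and ZNF383 with ZNF585B (4.29). A summit near starts of both genes cannot be given to either.

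By protein type, 64 of 210 members with a KRAB-like stretch were bound (30.5%, 24.6% to 37.0%) and 16 of 36 without it (44.4%, 29.5% to 60.4%), and the intervals overlap. Median pileups were 11 and 15. The ZNF genes elsewhere had the other order. There, 38 of 111 genes with the stretch were bound (34.2%, 26.1% to 43.5%) and 46 of 151 without it (30.5%, 23.7% to 38.2%). The 3 members with a SCAN-like stretch, ZNF444, ZNF274 and ZNF446, were all bound. Among the ZNF genes elsewhere 6 bound and 15 unbound genes had such a stretch. The number of fingers gave no order, with 33.3% bound at up to 9 fingers, 33.9% at 10 to 12, 33.8% at 13 to 15 and 28.6% at 16 or more.

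H3K27ac CUT&Tag peaks were listed at few members. There were 4 of 246, or 1.63% (0.634% to 4.11%), beside 3.31% of all protein-coding genes, 25 of 1230 other chromosome 19 genes (2.03%) and 6 of 262 ZNF genes elsewhere (2.29%). They were ZNF146, ZNF565, ZNF714 and ZNF43. At ZNF146 and ZNF565 a single H3K27ac peak with a pileup of 8 and a fold enrichment of 6.72 had its summit 383 bp from the HSF1 summit. At ZNF714 the H3K27ac peak had a pileup of 7 and a fold enrichment of 5.48, with its summit 255 bp from the HSF1 summit.

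At ZNF43 the H3K27ac peak, with a pileup of 8 and a fold enrichment of 7.14, lay 187 bp from an inner start that is 15943 bp from the outermost one, and no HSF1 peak was listed there. Of the 80 bound members 3 thus had both marks (3.75%, 1.28% to 10.5%), against 24 of 331 bound other chromosome 19 genes (7.25%, 4.92% to 10.6%). Both marks were found at 5 of 84 bound ZNF genes elsewhere (5.95%, 2.57% to 13.2%) and at 515 of all 5098 bound protein-coding genes. With 896393 tags left in the H3K27ac library and pileups of 7 and 8 at the listed members, a start without a listed H3K27ac peak cannot be called free of the mark.

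The genes of the machinery with which KRAB zinc finger proteins silence chromatin were read in the same way. Of a list of 21 such genes 10 were bound, or 47.6% (28.3% to 67.6%), beside the 25.4% of all protein-coding genes, with fold enrichments from 5.00 to 9.31. TRIM28, the co-repressor itself, lies on chromosome 19 near the last cluster and had a peak of pileup 19 and fold enrichment 8.62. The bound genes of the HP1 proteins were CBX3 (9.31, pileup 26), CBX1 (7.33) and CBX5 (6.88), which also had an H3K27ac peak. The summits lay 164 bp upstream of a start in CBX3 and 479 bp upstream in CBX5. Peaks that also lie near a start of another coding gene were not set apart in this list. SETDB1, the methyltransferase, had 6.67, its cofactor ATF7IP 6.52, the deacetylases HDAC1 6.90 and HDAC2 6.45, TASOR of the HUSH complex 5.00 and ZNF274, itself a member, 7.43. No peak was listed at CHD3, CHD4, MBD3, MPHOSPH8, PPHLN1, MORC2, SMARCAD1, ATRX, DAXX, UHRF1 and DNMT1. The list was chosen with earlier results of these data known, so its share bound describes these 21 genes only.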

How the data were processed

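HSF1 and H3K27ac CUT&Tag of untreated Huh7 cells were read from 1 peak list each. Per the methods, the authors aligned reads with Bowtie2 to hg38. Per the file headers they called peaks with MACS 2.1.4 on each library alone and with no control, using a p-value cutoff of 1e-05, a shift of -100 bp, an extension to 200 bp and removal of duplicates. The deposited pileup is an unscaled signal. The fold enrichment, also deposited, is a ratio to the local background. The deposited -log10 p-value comes from the caller. The headers say that q-values were not calculated, yet a -log10 q-value column is deposited. How it was made is not stated, and it served only as a filter. Repeated sequence, the missing control and the low depth can each change which starts are listed.

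Starts, exons and coding sequences came from GENCODE release 44, sequence from hg38 and promoters from RefSeq. Intervals are 95% Wilson or Newcombe intervals. Clusters joined members at most 500 kb apart, with at least 5 members. The local background was recovered from pileup and fold enrichment. A KRAB-like stretch allowed 2 mismatches in 9 fixed residues and a SCAN-like stretch 5 mismatches. The named members were, by rule, the 15 with the highest fold enrichment, those with an H3K27ac peak, the lowest, those on either side of the 1 kb limit and head-to-head pairs sharing a peak. Others are named as members of a cluster, of a run or of the co-repressor list, or for their start sequence. The members and lists were chosen with earlier results of these data known. The longer CCAAT motif fixes the pentamer and asks for either of 2 bases at each of 4 flanking positions. Assignment of peaks, weighting and motif search were tested on simulated data. Other windows, starts, filters and cluster gaps were tried as alternatives. The H3K27ac ChIP-seq lists, on hg19 per their headers, the RNA-seq and the remaining libraries were not analysed here. The software was pysam 0.24.0, pandas 2.3.3, matplotlib 3.10.9, numpy 2.4.6, scipy 1.17.1 and numba 0.67.0 under Python 3.11.15.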

Additional observations from a re-analysis of the deposited data

How the results depend on the processing

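For the 8 main results 58 values were recomputed under the alternatives that apply to each, 7 of them under alternatives chosen after seeing the data, and 53 stayed within the counting interval of the reported value, or within 1.5 times it for the range over clusters. Peaks with a -log10 q-value of at least 5 gave a share bound of 24.0% and a median fold enrichment of 7.5. Peaks with a pileup of at least 10 gave a share bound of 22.8% and a difference from the other chromosome 19 genes of -1.63 points. The longer motif gave a CCAAT difference of -4.50 points. In all, 8 values had another sign than the reported one. The others were 6 values of the difference from ZNF genes elsewhere, from -0.195 points (outermost start only) to -2.35 points (-log10 q-value of at least 5), around a reported value of 0.459 points whose interval includes 0. The cause was not tested. Leaving out genes with another coding start within 1 kb raised the difference from the other chromosome 19 genes to 10.9 points, and leaving out cluster 4 gave 3.71 points. The clusters numbered 13 with a gap of 250 kb and 9 with 1 Mb. With 1 library per antibody no replicate could be left out. No paired analysis was possible because each antibody has 1 library and no result comes from a test. At 2712212 HSF1 tags a start without a listed peak cannot be called free of HSF1.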
